A study of Mus musculus with 44 samples.

Results

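The respiratory chain genes are the genes for the subunits of the 5 complexes that carry electrons from NADH and succinate to oxygen and use the resulting proton gradient to make ATP. They were chosen from the count table by symbol (Nduf with a subunit letter and number, Sdha to Sdhd, Uqcr, Cox4 to Cox8, Atp5, and the protein genes of the mitochondrial chromosome). Rows with such symbols but a pseudogene name (13) or under 100 counts in total (8) were left out, which gave 96 of the 55416 genes of the table: 83 encoded in the nucleus and 13 in mitochondrial DNA. Cox6c2, with 177 counts in all libraries together, lay just inside the minimum, and Ndufa4l2, with 85, just outside. All but Cox6c2 passed the filter on low counts, so 95 members were tested, 82 nuclear and 13 mitochondrial.

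The study measured polyadenylated RNA in cultures of CD4 T cells from C57BL/6NTac mice carrying wild-type (WT), knock-out (KO) or knock-in (KI) miR-150, a microRNA of lymphocytes, and its title places the work in experimental autoimmune encephalomyelitis. The construction of the KO and KI alleles, the age of the mice and the number of mice behind a culture were not given in the sources used. Naive CD4 cells sorted from spleen were stimulated through CD3 and CD28 for 3 days. Th0 cultures received nothing else, Th1 cultures also received IL-12 and an antibody to IL-4, and Treg cultures received TGF-b1 and an antibody to IFN-g. Each of the 9 combinations of culture and genotype had 5 libraries, numbered 1 to 5, except Th0 KI, which had 4, numbered 1, 3, 4 and 5. The labels do not say whether a number marks a mouse, so p-values measure the spread between these libraries.

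Complex I (NADH dehydrogenase), complex III (the cytochrome bc1 complex), complex IV (cytochrome c oxidase) and complex V (ATP synthase) are built from subunits of both genomes, while complex II (succinate dehydrogenase) is wholly nuclear. The nuclear subunits are made in the cytosol and imported, and the mitochondrial ones are transcribed as long RNAs from mitochondrial DNA, cut apart and translated by the mitochondrial ribosome. Activated T cells build mitochondria as they grow, and regulatory T cells are known for their use of oxidative metabolism.

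Library totals ran from 60815821 to 137415965 counts. The row for Mir150 held 0 counts in all KO libraries and at most 2 in any other, too few to check the labels. The T cell markers Cd4 and Cd3e were present in every library, and the summed level of 8 T cell markers was 1601 to 3249 CPM (counts scaled to a common library size with TMM factors) over the libraries. Markers of other cells were also present: 10 B cell markers summed to 55.6 to 2021 CPM, 8 markers of CD8 T and NK cells to 18.4 to 708 CPM, 13 myeloid and dendritic markers to 6.59 to 64.3 CPM, and 6 erythroid markers to 0.295 to 8.67 CPM. In Treg against Th0, 6 of the 8 T cell markers and 4 of the 13 myeloid markers were called higher in each genotype. In KI, 4 of the 8 CD8 T and NK markers and 3 of the 6 erythroid markers were called lower, against 16.9% of all genes. In WT and in KO, 1 CD8 T and NK marker was lower and 1 higher, and 1 of the 10 B cell markers was lower. The part of these shifts in the results below was not tested. The Treg libraries numbered WT 4, KO 2 and KI 3 had 442.5, 73.1 and 318 CPM of Cd8a, a marker of CD8 T cells, against 4.16 to 23.9 CPM in the other Treg libraries; the Th0 libraries of those numbers had 112.7, 20.5 and 107.4 CPM. Foxp3, the defining transcription factor of regulatory T cells, stood at 47.7, 77.4 and 61.97 CPM in those libraries, at 159 CPM in WT 3 and at 376 to 596 CPM in the others. In bulk RNA, fewer cells of a type and less RNA per cell cannot be told apart.

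Promoter sequences are shown for members whose changes are described below and for members that hold a known motif of respiratory gene promoters. RefSeq promoters (GRCm38.p6, 250 bases before to 50 after the start site) were found for 67 of the 83 nuclear members. They were searched on both strands for an NRF1 motif (GCGCATGCG), an ETS motif (CCGGAAGT) and a YY1 motif (AAGATGGCG). NRF1, ETS factors such as GABP, and YY1 are known regulators of nuclear respiratory genes. The first 3 sequences below belong to members that rose (Cox7a2l) or fell (Atp5b, Ndufa10) in Treg cultures, and none of the motifs lies in the stretch shown. The other 3 hold motifs, shown in capitals. In Ndufa11 the NRF1 motif reads on both strands with an overlap, so 10 letters are in capitals. Each runs from 120 bases before the start site to 10 bases after it, 5′ to 3′ on the gene's strand.
Cox7a2l, chr17:83514324-83514453, minus strand: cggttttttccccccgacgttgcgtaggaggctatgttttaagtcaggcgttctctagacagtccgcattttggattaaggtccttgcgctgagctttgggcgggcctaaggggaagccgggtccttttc
Atp5b, chr10:128083187-128083316, plus strand: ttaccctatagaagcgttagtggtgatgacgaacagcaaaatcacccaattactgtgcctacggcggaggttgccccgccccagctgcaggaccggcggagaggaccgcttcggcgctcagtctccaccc
Ndufa10, chr1:92473749-92473878, minus strand: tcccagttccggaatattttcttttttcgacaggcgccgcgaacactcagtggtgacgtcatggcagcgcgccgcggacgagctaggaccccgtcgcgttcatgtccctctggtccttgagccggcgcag
Ndufa11 (NRF1), chr17:56717642-56717771, plus strand: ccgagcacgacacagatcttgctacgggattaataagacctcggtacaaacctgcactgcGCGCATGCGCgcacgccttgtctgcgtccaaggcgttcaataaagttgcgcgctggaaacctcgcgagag
Uqcr11 (ETS, then NRF1), chr10:80406812-80406941, minus strand: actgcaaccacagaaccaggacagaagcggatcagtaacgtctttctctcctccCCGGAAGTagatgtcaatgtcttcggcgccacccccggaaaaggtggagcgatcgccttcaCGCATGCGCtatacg
Atp5j (YY1), chr16:84834967-84835096, minus strand: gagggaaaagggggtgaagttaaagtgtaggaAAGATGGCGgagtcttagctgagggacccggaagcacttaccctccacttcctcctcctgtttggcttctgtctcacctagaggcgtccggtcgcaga

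The NRF1 motif was in the full promoter window of 8 of 67 members (11.9%) and of 1.95% of 27025 genes. The YY1 motif was in 7 (10.4%, against 1.64% of genes) and the ETS motif in 5 (7.46%, against 4.31%). The NRF1 motif was in Atp5g2, Atp5k, Atp5l, Cox6a1, Ndufa11, Ndufa8, Uqcr11 and Uqcrc1. Of the 33 matched members called lower in Treg cultures of at least 1 genotype, 2 held the NRF1 motif, 2 the ETS motif and 4 the YY1 motif. A match is a description of letters and not of binding.

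Mitochondrial members took up several times more of each library than nuclear ones. In the 44 libraries the 13 mitochondrial members held 2.25% to 5.09% of all counts, with a median of 2.90%, and the 83 nuclear members held 0.594% to 1.01%. Per kilobase of exon in Th0 WT, the median mitochondrial member stood at 1965 CPM and the median nuclear member at 37.8 CPM. The mitochondrial order ran from mt-Co1, the catalytic subunit of complex IV, at 7493 ± 1311 CPM per kilobase (SD, n = 5) down to 290 CPM per kilobase. The nuclear gene with the highest level per length was Atp5b, the catalytic beta subunit of ATP synthase, at 389 CPM per kilobase. Neighbouring mitochondrial genes overlap on the chromosome (mt-Atp8 with mt-Atp6, mt-Nd4l with mt-Nd4, and mt-Nd5 with mt-Nd6 on the opposite strand), and whether counting used strand was not given in the sources used, so levels of these pairs are uncertain.

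In WT the mean share of counts on mitochondrial members differed between cultures by less than 1 SD of the Th0, Th1 or Treg libraries. It was 3.08% ± 0.760 (SD, n = 5) in Th0 WT, 3.06% ± 0.719 (n = 5) in Th1 WT and 3.70% ± 1.11 (n = 5) in Treg WT. The nuclear share was 0.897% ± 0.0564 in Th0 WT, 0.868% ± 0.0333 in Th1 WT and 0.770% ± 0.111 in Treg WT, with 5 libraries each. In the WT cultures the library numbered 5 had the highest mitochondrial share each time, at 4.17% in Th0, 4.23% in Th1 and 5.09% in Treg. The ratio of mitochondrial to nuclear counts in the Treg WT libraries 1 to 5 was 4.66, 6.60, 3.49, 2.63 and 7.90, against 3.34, 3.64, 2.51, 3.12 and 4.49 in the Th0 WT libraries of the same numbers. The 2 lowest Treg WT ratios belonged to libraries 3 and 4, the pair with the lowest Foxp3, and lay inside the Th0 range. The KI and KO means were 4.40 ± 0.672 (n = 5) in Treg KI against 3.58 ± 0.380 (n = 4) in Th0 KI, and 3.998 ± 0.559 (n = 5) in Treg KO against 3.01 ± 0.344 (n = 5) in Th0 KO.

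**Figure D1:**
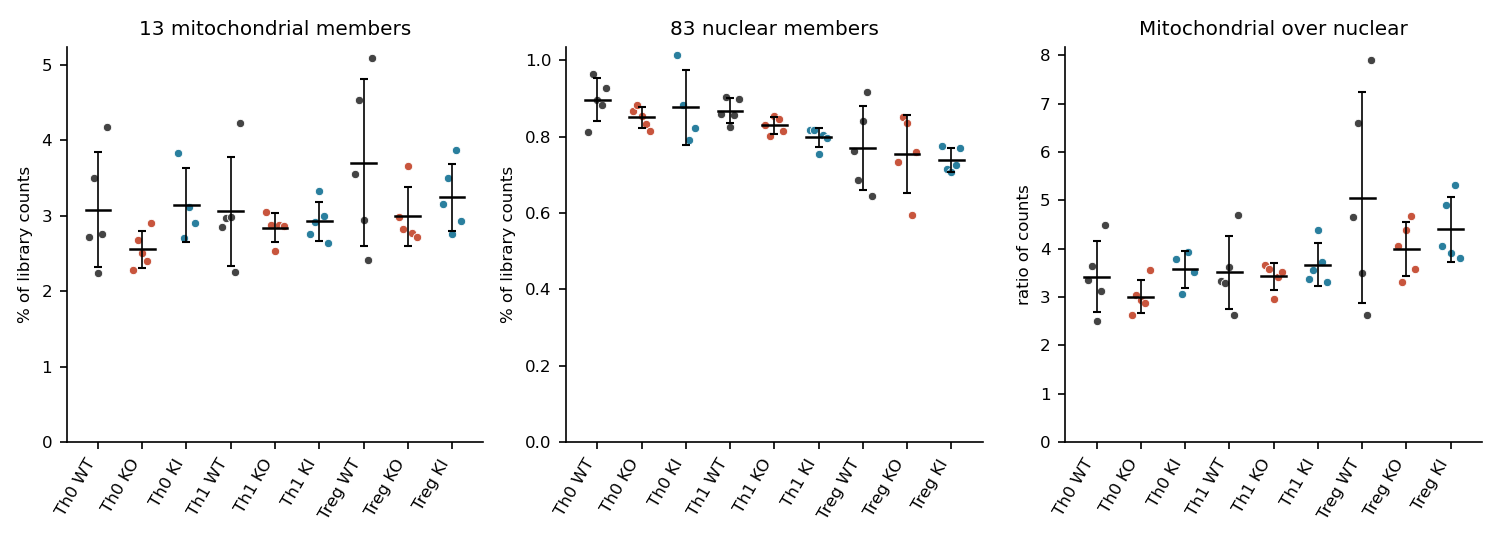
Percent of library counts on the 13 mitochondrial members (left) and the 83 nuclear members (middle), and their ratio (right), by culture and genotype. Points are libraries in order of their number, the horizontal line is the mean and the bar 1 SD. The Treg WT libraries spread from a ratio of 2.63 to 7.90, wider than any other group.

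In Treg against Th0 cultures more nuclear members were called lower than higher in each genotype, and no mitochondrial member was called. With the library number as a block, 3 of the 13 mitochondrial members were called higher in WT, 3 higher in KO and 2 lower in KI. They are given below for each gene. Of all 21873 genes tested, the block called 4396 higher in WT, 4524 higher in KO and 4301 lower in KI. In WT cultures 3 of 82 nuclear members (3.66%) were called higher and 19 (23.2%) lower by the edgeR quasi-likelihood test at a Benjamini-Hochberg adjusted p under 0.05. The background over the 21873 genes of the test was 17.4% higher and 15.7% lower. In KO cultures 3 rose and 14 fell, 17.1% of nuclear members lower against 15.9% of all genes, a share near the background. The share called higher was 3.66% against 17.1% of all genes in KO. In KI cultures 1 rose and 37 fell, 45.1% lower against 16.9% of all genes, and 1.22% higher against 16.7%. The median log2 fold change of nuclear members was -0.21 in WT, -0.12 in KO and -0.32 in KI, and over all genes tested it was 0.02, 0.04 and -0.01. Of the nuclear members, 56 lay below 0 in all 3 genotypes and 8 above 0 in all 3.

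The counts leaned on a few libraries. When WT 4, KO 2 and KI 3 were left out of every culture, 34 nuclear members were called for WT (4 higher, 30 lower). There were 24 for KO (4 and 20) and 31 for KI (2 and 29). Of the 21968 genes of that fit, 4100 were called higher and 4102 lower in WT. These counts were 4256 and 4152 in KO, and 3893 and 4147 in KI. Without Treg WT 4 alone the WT count was 39, without Treg WT 2 it was 12 and without Treg WT 5 it was 14. Without Th0 KI 1, a library in which several members stood above its group, the KI count fell from 38 to 15.

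**Figure D2:**
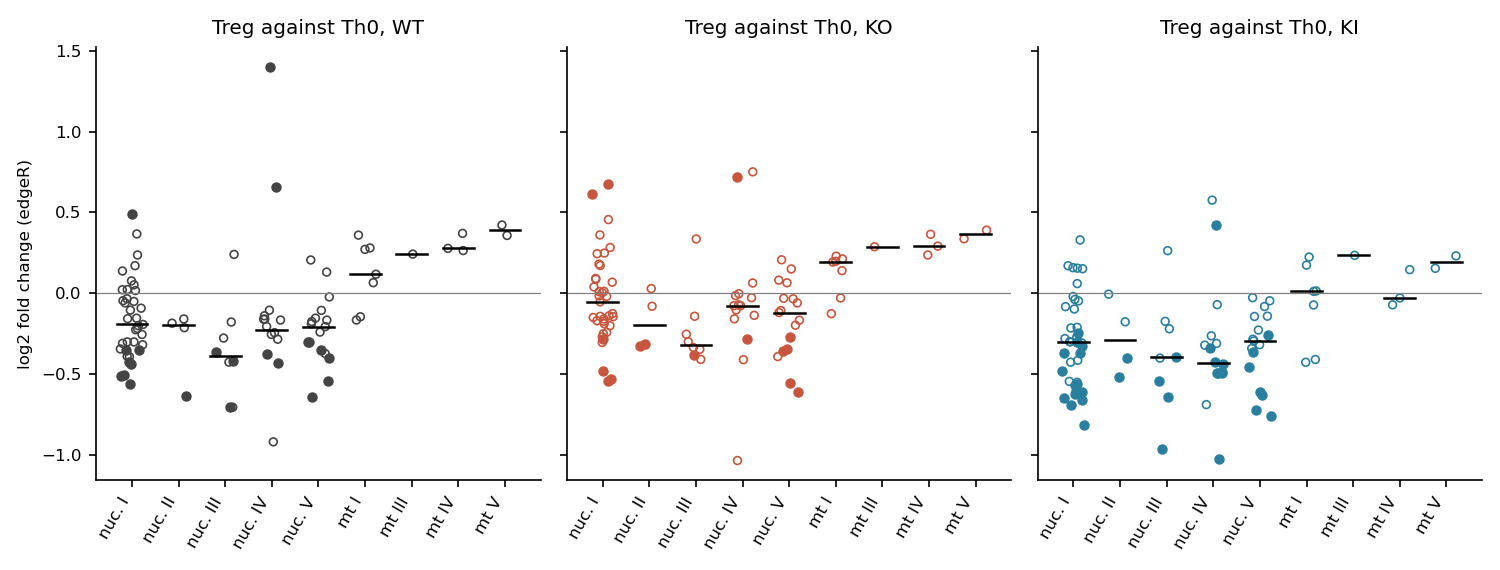
Log2 fold change of each tested member in Treg against Th0 cultures, by complex and genome (nuc., nuclear; mt, mitochondrial), in WT, KO and KI. Filled points passed the adjusted p threshold, open points did not, and the line is the median of the column; the very low isoform genes Cox6a2 (all genotypes) and Cox4i2 (WT) fall outside the axis. All 13 mitochondrial points are open in each genotype.

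Each of the 5 complexes had nuclear members that fell, but the share called lower differed between complexes. In complex I, 7 of 37 nuclear members (18.9%) were lower in WT, 4 (10.8%) in KO and 15 (40.5%) in KI, and 1, 2 and 0 were higher. Against 15.7%, 15.9% and 16.9% of all genes called lower, the WT share was near the background and the KO share below it. Ndufa10, a subunit of the membrane arm of complex I (chromosome 1, 92439010 to 92473860, GRCm38), stood at 118.4, 135.8, 121.5, 119.9 and 134.3 CPM in Th0 WT libraries 1 to 5 and at 95.9, 95.1, 105.4, 114.8 and 83.1 CPM in Treg WT. No Treg WT library reached the lowest Th0 WT library. Its log2 fold change was -0.35 ± 0.0749 (SE) with adjusted p = 0.000386 in WT, and the groups were also apart in KO (-0.28) and KI (-0.24), where it fell as well. Ndufa5, a small accessory subunit, went from 24.9, 37.998, 26.9, 29.5 and 36.2 CPM to 19.8, 22.3, 23.8, 23.1 and 20.4 CPM in WT, a log2 change of -0.51 ± 0.191 with adjusted p = 0.0370. That call rested on single libraries, since leaving out any of Th0 WT 2, Th0 WT 5, Treg WT 1, Treg WT 2 or Treg WT 5 ended it, with log2 changes of -0.42, -0.46, -0.47, -0.50 and -0.50.

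Ndufb6, an accessory subunit of the membrane arm, showed the lowest complex I value of KI cultures. It stood at 50.9, 44.7, 32.05 and 41.7 CPM in Th0 KI and at 25.3, 21.8, 24.8, 23.3 and 24.9 CPM in Treg KI, with no overlap (log2 change -0.82 ± 0.150, adjusted p = 5.24e-05). Ndufb6 also fell in WT (-0.43) and KO (-0.54). Ndufa9, a subunit at the joint of the arms, fell in KI (-0.69 ± 0.116, adjusted p = 1.77e-05) and WT (-0.42). Ndufa12 fell in all 3 genotypes, by 0.56 in WT, by 0.48 in KO (adjusted p = 0.00995) and by 0.66 in KI on the log2 scale. Ndufa6 went the other way in WT (0.49) and KO (0.61), from 18.5, 22.1, 24.2, 21.3 and 21.1 CPM in Th0 WT to 33.3, 32.4, 23.5, 28.01 and 33.6 CPM in Treg WT. The groups overlap only through Treg WT 3. In KI, Th0 libraries 1 and 3 stood at 40.6 and 36.97 CPM, above every Treg KI library, and Ndufa6 was not called.

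All 4 subunits of complex II, which oxidises succinate, lay below 0 in WT. Called lower were 1 of the 4 (25%) in WT, 2 (50%) in KO and 2 (50%) in KI, and none was called higher. Of all genes, 15.7%, 15.9% and 16.9% were called lower. Sdhd, a membrane anchor, was the WT member with the lowest adjusted p. It stood at 114, 174, 143.7, 148 and 164 CPM in Th0 WT and at 95.5, 82.8, 105.9, 123.3 and 71.98 CPM in Treg WT. Only Treg WT 4 exceeded the lowest Th0 WT library. The log2 change was -0.63 ± 0.127 in WT (adjusted p = 0.000176), -0.33 in KO (adjusted p = 0.0431) and -0.51 in KI (adjusted p = 0.00260). Sdhc, the other anchor, fell in KO (-0.31 ± 0.0942, adjusted p = 0.00878), with no overlap, and was at -0.21 in WT and -0.18 in KI without passing the test. Sdha, which carries the flavin, was at -0.16, -0.08 and -0.01 in WT, KO and KI and was not called. Sdhb, the iron-sulfur subunit, was called in KI (-0.40) and not in WT (-0.18) or KO (0.03).

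In complex III, Uqcrc2, a core subunit, fell in all 3 genotypes, with log2 changes of -0.36 in WT (adjusted p = 0.0474), -0.38 in KO (0.0377) and -0.54 in KI (0.00490). Its Th0 WT libraries stood at 210.2, 278, 228, 271 and 277 CPM and its Treg WT libraries at 178, 179.8, 218, 228 and 179 CPM, so that Treg WT 3 and 4 overlapped Th0. Uqcr10, a small subunit, fell in WT (-0.70) and KI (-0.64). The 8 nuclear complex III members gave 3 lower calls in WT, 1 in KO and 4 in KI, and none higher. The shares called lower were 37.5%, 12.5% and 50%, against 15.7%, 15.9% and 16.9% of all genes. The KO share was thus below that of all genes, and the WT and KI shares were above it.

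Of 16 tested nuclear members of complex IV, 2 (12.5%) were called lower in WT, 2 (12.5%) in KO and 9 (56.2%) in KI. Called higher were 2, 1 and 1. The WT and KO shares called lower were below the 15.7% and 15.9% of all genes, and the KI share was above 16.9%. Complex IV held the member that rose most clearly. Cox7a2l (chromosome 17, 83501918 to 83517330, GRCm38) has been described as a factor that joins complexes III and IV into supercomplexes. Which form of it these mice carry, and whether supercomplexes differed, was not examined. Cox7a2l stood at 121.4, 116.9, 103.4, 93.9 and 118.8 CPM in Th0 WT and at 213, 174, 150.01, 132.9 and 206 CPM in Treg WT. Every Treg WT library was above every Th0 WT library. Its log2 change was 0.66 ± 0.156 (adjusted p = 0.00114) in WT and 0.72 ± 0.157 (adjusted p = 0.000433) in KO, again with no overlap. In KI, Th0 libraries 1 and 3 stood at 205 and 198 CPM and libraries 4 and 5 at 123.4 and 130.1 CPM, the Treg libraries stood at 206, 239.8, 227, 194 and 233 CPM, and the log2 change was 0.42 ± 0.166 (adjusted p = 0.0455). The test of the difference between genotypes called no gene of the table, and the groups of KI overlap. Its paralogue Cox7a2 fell in WT (-0.43) and KI (-0.49) and was at -0.03 in KO.

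Per length, Cox7a2l made up 40% ± 4.14 (SD, n = 5) of Cox7a1, Cox7a2 and Cox7a2l together in Th0 WT and 57.9% ± 9.04 (n = 5) in Treg WT, with no overlap between 36.2% to 46.7% and 47.97% to 67.2%. The share was 49.3% ± 4.83 (n = 4) against 64.6% ± 2.45 (n = 5) in KI, and 43.97% ± 1.92 against 56.6% ± 6.65 (n = 5 each) in KO. The Th0 and Treg groups of KO overlapped, at 42.4% to 47.1% and 44.9% to 61.3%. The mean share was also above Th0 in Th1 cultures, at 47.2% ± 7.70 in WT, 54.7% ± 2.37 in KO and 56.4% ± 5.55 in KI (n = 5 each). Th1 KO, at 51.1% to 57.3%, did not overlap Th0 KO, while the Th1 ranges of WT and KI overlapped Th0. Cox7a1, the heart and muscle isoform, was called higher in WT (1.40 ± 0.396) at a mean of only 0.268 CPM in Th0 and 0.708 CPM in Treg. The tissue-specific isoforms were near the floor in every group: Cox4i1 made up 99.9% of the Cox4i pair per length in Th0 WT, Cox6a1 99.7% of the Cox6a pair and Cox6b1 98.95% of the Cox6b pair. The low isoform Cox6a2 was called lower in KO, from 0.0986 to 0.370 CPM in Th0 to at most 0.0292 CPM in Treg, and in KI, where 4 of 5 Treg libraries held 0, and Cox6b2 was called lower in KI (-1.02). The main isoforms Cox4i1 (-0.16, -0.08 and -0.07), Cox6a1 (-0.17, 0.00 and -0.26) and Cox6b1 (-0.24, -0.08 and -0.31, in WT, KO and KI) did not pass the test. Cox8a fell in WT (-0.38) and KI (-0.49), and Ndufa4, first assigned to complex I and now to complex IV, in KI (-0.49).

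Of 17 nuclear members of complex V, 6 (35.3%) were called lower in WT, 5 (29.4%) in KO and 7 (41.2%) in KI, and none higher. Of all genes, 15.7%, 15.9% and 16.9% were called lower. Complex V had 4 members that fell in all 3 genotypes: Atp5b and Atp5a1, the beta and alpha subunits of the catalytic head, Atp5pb of the peripheral stalk, and Atp5g1, which encodes subunit c of the rotor. Atp5b (chromosome 10, 128083273 to 128090391, GRCm38) stood at 1522, 1748, 1668, 1712 and 1585 CPM in Th0 WT and at 955, 799, 1540, 1573 and 790.1 CPM in Treg WT. Treg WT libraries 3 and 4 thus lay within the Th0 range, and they were the WT libraries of lowest Foxp3, while libraries 1, 2 and 5 lay far below. In KO the Th0 libraries stood at 1509 to 1747 CPM, Treg KO 2 at 1421 CPM and the other Treg KO libraries at 984 to 1091 CPM. In KI the Th0 libraries stood at 1434 to 1528 CPM and all Treg libraries at 892 to 1073 CPM, Treg KI 3, with 61.97 CPM of Foxp3, being the highest. The log2 changes of Atp5b were -0.54 ± 0.124 in WT (adjusted p = 0.000823), -0.56 ± 0.124 in KO (0.000601) and -0.61 ± 0.131 in KI (0.000385). Whether the Foxp3 level and the Atp5b level are linked was not tested.

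Subunit c is encoded by 3 genes that make the same mature protein, and reads of such related genes may be split by the counting. Atp5g1 stood at 115.1, 141.3, 130.9, 128.4 and 114.8 CPM in Th0 WT and at 88.3, 55.7, 77.6, 127.5 and 54.9 CPM in Treg WT, where library 4 alone overlapped Th0. It fell in WT (-0.64), KO (-0.61 ± 0.184, adjusted p = 0.00940) and KI (-0.72 ± 0.194, adjusted p = 0.00350), the last call ending without Th0 KI 1 (-0.50). Atp5g3 fell in WT (-0.30) and KO (-0.34) and was at -0.14 in KI, and Atp5g2 was at -0.02, 0.21 and -0.03 and did not pass. Per length, Atp5g1 supplied 12.2% ± 0.947 (n = 5) of the family in Th0 WT and 8.86% ± 1.72 (n = 5) in Treg WT. Atp5md, a small membrane subunit, fell in KI (-0.76 ± 0.170, adjusted p = 0.000617), with no overlap.

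**Figure D3:**
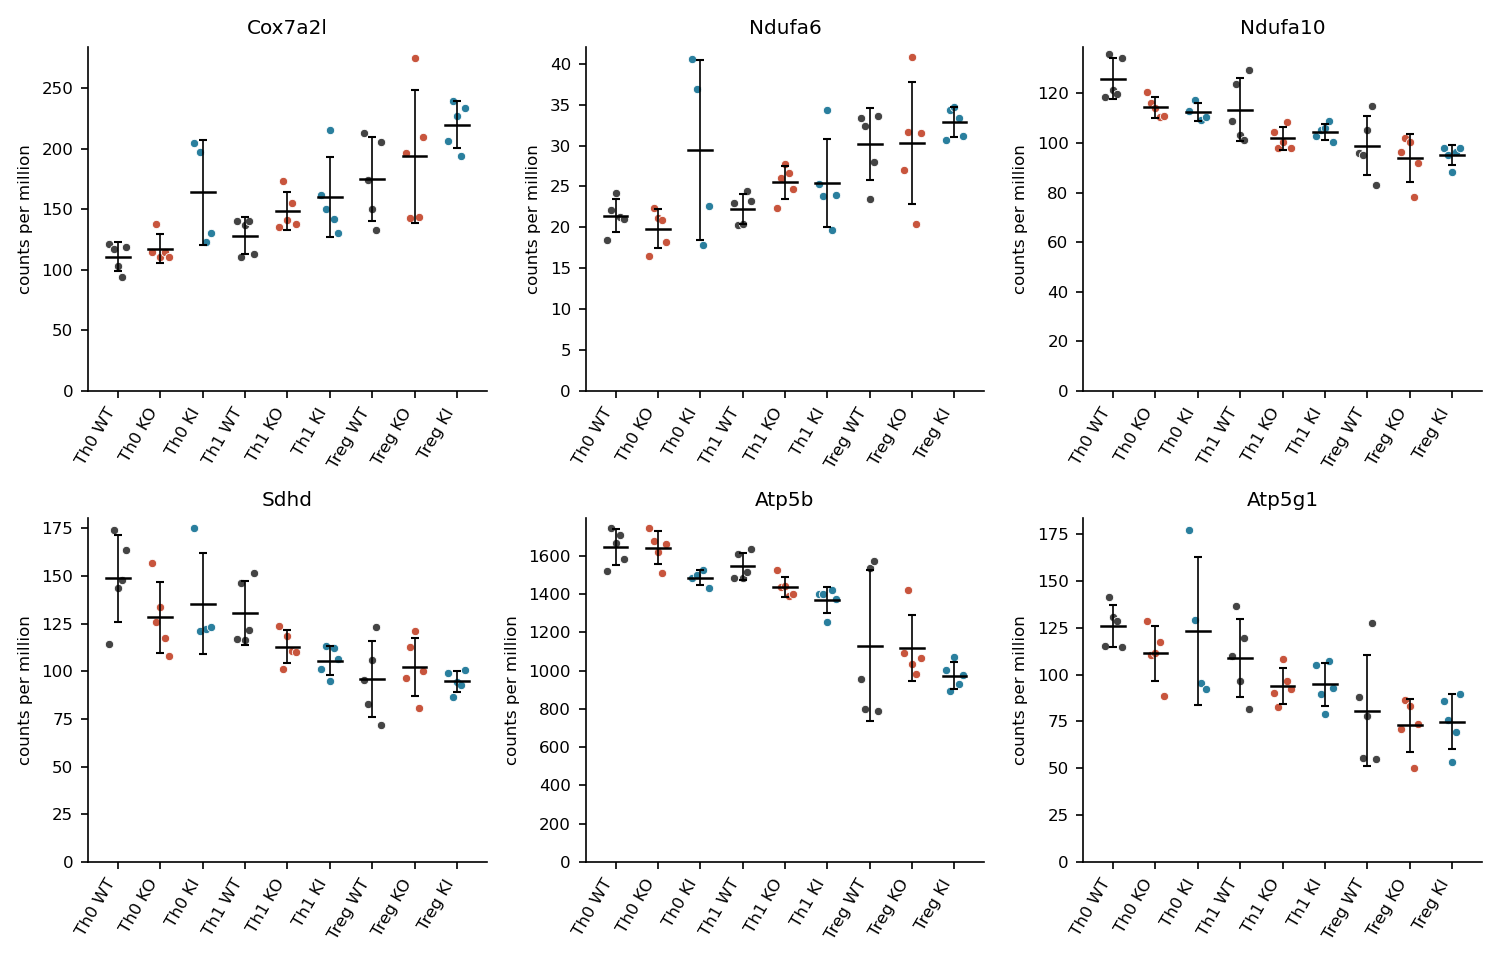
CPM (TMM-scaled) of 6 nuclear members by culture and genotype. Points are libraries in order of their number, the horizontal line is the mean and the bar 1 SD; Treg WT libraries 3 and 4 stand at 1540 and 1573 CPM of Atp5b, the other 3 at 790 to 955 CPM.

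None of the 13 mitochondrial members passed the test in Treg against Th0 in any genotype. At an unadjusted p under 0.05 there were 1 in WT, 0 in KO and 2 in KI, and DESeq2 called 0, 0 and 1. The unadjusted counts are 7.69%, 0% and 15.4% of mitochondrial members, against 42.6%, 41.9% and 42.2% of all genes. Their median log2 fold change was 0.27 in WT, 0.23 in KO and 0.01 in KI. mt-Co1 stood at 11019, 12721, 8836, 11083 and 14226 CPM in Th0 WT and at 13372, 15934, 11752, 10086 and 18373 CPM in Treg WT, with wide overlap (0.26 ± 0.160). mt-Cytb, the complex III subunit of mitochondrial DNA, was at 0.24 ± 0.255, 0.29 ± 0.255 and 0.23 ± 0.272 in WT, KO and KI. The complex V pair was at 0.42 (mt-Atp8) and 0.36 (mt-Atp6) for WT, 0.39 and 0.34 for KO, and 0.23 and 0.15 for KI. mt-Co2 was at 0.28, 0.29 and -0.03 and mt-Co3 at 0.37, 0.36 and 0.15 in the same order. Of the complex I subunits, mt-Nd3 was at 0.27, 0.19 and 0.01, mt-Nd4 at 0.12, 0.20 and 0.01, mt-Nd4l at 0.07, 0.14 and -0.07, mt-Nd5 at 0.28, 0.21 and 0.17, and mt-Nd6 at 0.36, 0.23 and 0.22.

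mt-Nd1 and mt-Nd2, the members nearest the start of the long heavy-strand transcript, were the only mitochondrial members below 0 in all 3 genotypes. Their log2 changes were -0.17 and -0.15 for WT, -0.03 and -0.13 for KO, and -0.41 and -0.43 for KI. Both also lay below 0 in Th1 against Th0, so the sign was not particular to Treg cultures. There they were at -0.18 and -0.25 for WT, -0.10 and -0.19 for KO, and -0.21 and -0.31 for KI, and neither was called. In KI, mt-Nd1 stood at 4062, 3132, 3094 and 3550 CPM in Th0 and at 2419, 2724, 2412, 2810 and 2659 CPM in Treg, with no overlap between the groups, and its adjusted p was 0.0567. With the library number as a block, which paired the Th0 and Treg libraries of KO and of KI, mt-Nd1 and mt-Nd2 were called lower in KI (adjusted p = 0.00290 and 0.00189), and mt-Atp8, mt-Atp6 and mt-Co3 higher in KO (adjusted p = 0.0245, 0.0471 and 0.0380). The block also called mt-Atp8, mt-Atp6 and mt-Co3 higher in WT (adjusted p = 0.0221, 0.0395 and 0.0312). Of all 21873 genes, it called 4396 higher in WT, 4524 higher in KO and 4301 lower in KI. In WT the lowest correlation of same-numbered libraries, 0.0919, lay just under the 0.1 required for pairing. As a share of the counts of the 13 members, which does not depend on the scaling between libraries, mt-Nd1 made up 10.1% ± 0.363 (SD, n = 5) in Th0 WT and 7.99% ± 0.938 (n = 5) in Treg WT, 10.6% ± 1.46 and 8.94% ± 0.971 for KO, and 10.7% ± 1.14 (n = 4) and 8.24% ± 0.725 in KI. mt-Nd2 made up 5.65% ± 0.338 and 4.47% ± 0.337 in WT, with no overlap between 5.22% to 6.00% in Th0 and 4.05% to 4.92% in Treg. In KO the groups overlapped for mt-Nd2 (4.71% to 6.31% in Th0, 4.09% to 5.29% in Treg) and for mt-Nd1 (8.14% to 11.6% and 8.17% to 10.6%). In Th1 cultures mt-Nd1 made up 9.18% ± 0.604 for WT, 9.12% ± 1.58 for KO and 10.5% ± 1.72 for KI (n = 5 each). The Th1 WT range, 8.42% to 9.75%, lay below the Th0 WT range, 9.85% to 10.8%, while the KO and KI ranges overlapped Th0. Leaving out Treg WT 4 gave 5 called mitochondrial members in WT, leaving out Th0 WT 5 gave 3, and leaving out Treg WT 3 gave 1. Leaving out Th0 KI 3 or Th0 KI 4 gave 1 in KI.

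**Figure D4:**
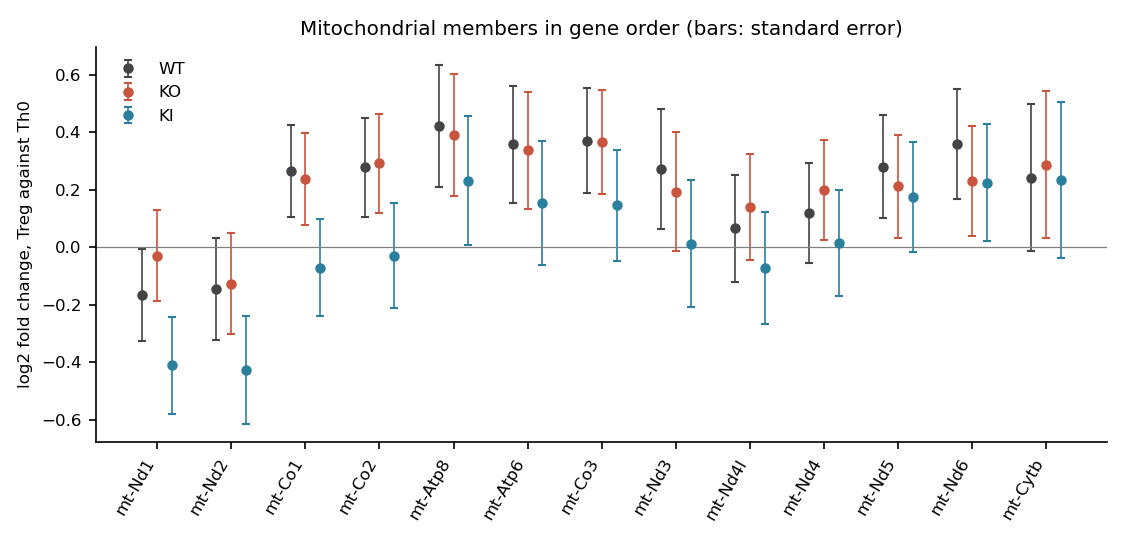
Log2 fold change in Treg against Th0 cultures for the 13 mitochondrial members, in their order along the mitochondrial chromosome, in WT, KO and KI. Bars are standard errors of the fit; mt-Nd1 and mt-Nd2 lie below 0 in each genotype, and no member passed the adjusted p threshold.

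The machinery that builds and feeds the chain was described with lists of other genes. The mitochondrial ribosome had 55 lower and 0 higher of 83 tested genes for WT, then 47 and 1 for KO and 53 and 0 for KI, with median log2 changes of -0.51, -0.45 and -0.56. Mrps18b, a protein of its small subunit, was at -1.25, -1.61 and -1.40, and Mrpl1, of its large subunit, at -1.08, -1.20 and -1.49. Genes that cut, modify and stabilise mitochondrial RNA were lower in 16 of 18 and higher in 1 of 18 in each genotype, with medians of -0.74, -0.80 and -0.68. Fastkd2, an RNA-binding protein of the mitochondrial matrix, was at -1.42, -1.43 and -1.47, and Rexo2, a nuclease of short RNAs, rose by 0.51, 0.50 and 0.51. These shares stand against 15.7%, 15.9% and 16.9% of all genes called lower.

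Beside the counts of the lists that follow stand the same shares of all genes called lower (15.7% in WT, 15.9% in KO and 16.9% in KI) and higher (17.4%, 17.1% and 16.7%). Assembly factors had more lower than higher calls. For complex I, 10 of 17 were lower and 2 higher for WT, with 8 and 2 for both KO and KI; Ndufaf4 was at -0.93, -1.07 and -1.08 and Dmac2 at 0.58, 0.59 and 0.87. For complex IV, 9 of 19 were lower and 1 higher for WT, then 8 and 0 for KO and 9 and 0 for KI, with Sco1, a copper carrier, at -1.15, -1.03 and -1.76. For complexes II, III and V, 4 of 13 were lower in WT, 5 in KO and 5 in KI, with 0, 0 and 1 higher. Tmem70, which helps ATP synthase form, was at -0.78, -1.11 and -1.17.

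Cytochrome c, which carries electrons from complex III to complex IV, and the enzymes that pass electrons to ubiquinone had 6 of 9 lower in WT, 7 in KO and 5 in KI, with 1, 0 and 1 higher. Cycs, the gene of cytochrome c, was at -0.94 ± 0.200 (adjusted p = 0.000366), -0.88 ± 0.200 (0.000660) and -1.33 ± 0.210 (7.18e-06), and Gpd2, which brings electrons from cytosolic glycerol phosphate, at -1.11, -1.32 and -1.28. The citric acid cycle had 12 of 18 lower in WT, 12 in KO and 9 in KI and none higher. Idh3a, a subunit of isocitrate dehydrogenase, was at -0.83, -0.94 and -0.86. The carrier list had 6 lower and 1 higher of 11 for WT (4 and 0 for KO, 4 and 1 for KI), and Ucp2, an inner membrane carrier, was called higher in WT (0.48) and KI (0.63). Without Treg WT 2 the WT carrier count was 3 in place of 7, and without Treg KI 3 the KI count was 8 in place of 5.

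Genes that copy and transcribe mitochondrial DNA went both ways, with 7 lower and 4 higher of 20 for WT, then 6 and 4 for KO and 9 and 3 for KI. Top1mt, the mitochondrial topoisomerase, was at -1.27, -1.07 and -1.08, and Polg2, the accessory subunit of the mitochondrial DNA polymerase, at 0.93, 0.86 and 0.96. The WT count of 11 fell to 7 without Th0 WT 5, Treg WT 2 or Treg WT 5. Of 16 tested regulators of respiratory genes, 4 were lower and 2 higher for WT, then 3 and 1 for KO and 2 and 1 for KI. Myc was at -0.70, -0.71 and -0.67, the PGC-1-related coactivator Pprc1 at -0.81 in WT and -0.88 in KO, and Nrf1 at -0.39 in WT. Their shares called lower, 25%, 18.8% and 12.5%, lay around the 15.7%, 15.9% and 16.9% of all genes. The WT count of 6 fell to 3 without Th0 WT 2, Th0 WT 4, Treg WT 2 or Treg WT 5.

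**Figure D5:**
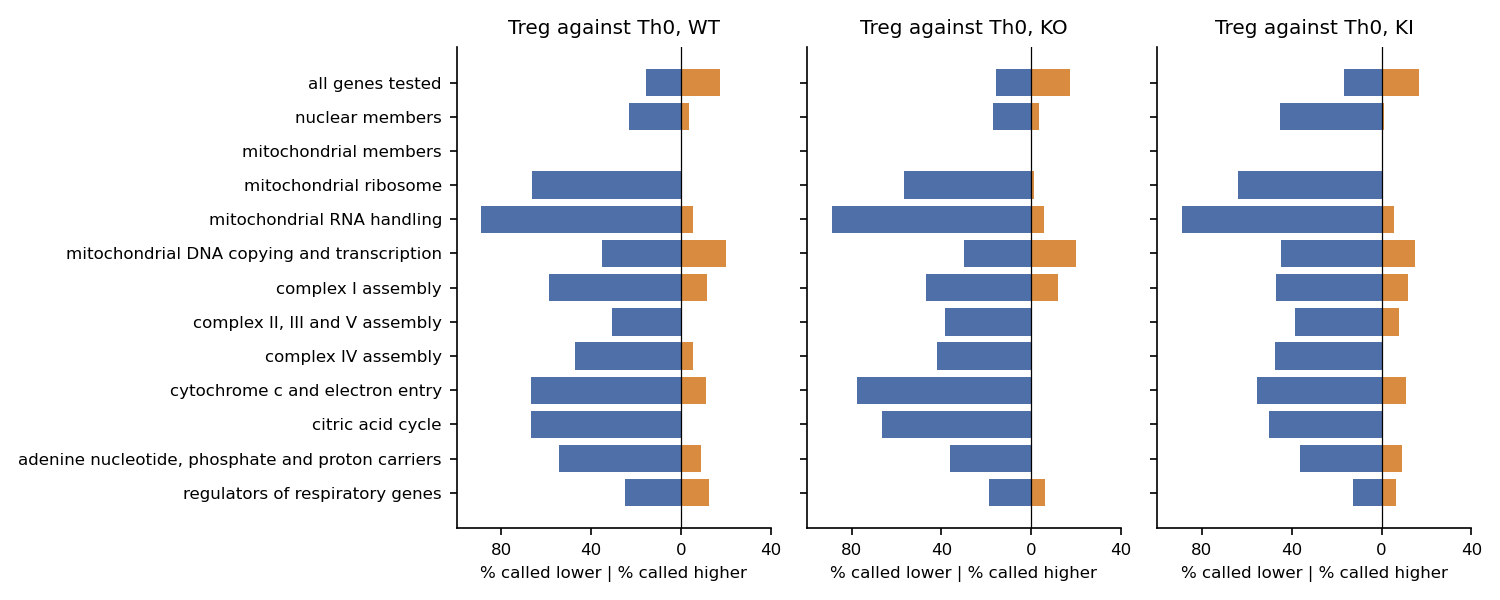
Percent of tested genes called lower (left of 0) and higher (right of 0) in Treg against Th0 cultures, for all genes, the nuclear and mitochondrial members and 10 lists of related genes, in WT, KO and KI. The mitochondrial RNA handling list reaches furthest to the left in each genotype, at 88.9%, and the mitochondrial members have no bar.

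Th1 against Th0 gave calls among these genes in KI alone in the edgeR fit without a block, and the difference between genotypes was not tested for this contrast. No member was called in WT, where 3.04% of all genes were, nor in KO, where 9.51% were. At an unadjusted p under 0.05 there were 5 nuclear and 0 mitochondrial members for WT, 10 and 0 for KO, and 33 and 0 for KI. These are 6.1%, 12.2% and 40.2% of nuclear members, against 14.7%, 25.1% and 21.2% of all genes. DESeq2 called 0 members in WT, 2 nuclear ones in KO (1 higher, 1 lower) and 14 in KI, all lower. Of all 21873 genes, DESeq2 called 1500 higher and 1242 lower in KO, and 949 lower in KI. With the library number as a block, which paired Th0 and Th1 libraries in each genotype, 6 nuclear members were called in KO (2 higher, 4 lower), among them Cox6b2 at 1.14, Atp5d at 0.60, Uqcrb at -0.51 and Ndufa5 at -0.46. Of all 21873 genes, the block called 2072 higher and 1912 lower in KO. Leaving out Th0 KO 2 gave 2 calls in KO, and leaving out Th1 KO 1 gave 1.

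In KI, 8 of 82 nuclear members (9.76%) were lower in Th1 than in Th0 and none higher, against 2.94% of all genes called lower. The summed CD8 T and NK cell markers had a median of 165 CPM in Th0 KI (range 146 to 281) and 54.2 CPM in Th1 KI (42.7 to 199.8), and the B cell markers 698 (282 to 2021) and 353 CPM (153.8 to 1449), with none of those 18 markers called, and their part in the result was not tested. The members called were Ndufa5, Ndufa3 and Ndufc1 of complex I, Uqcr10, Uqcrb and Uqcrc2 of complex III, Cox7c of complex IV and Atp5c1 of complex V. Uqcrb, which helps hold ubiquinone, stood at 85.0, 47.6, 52.3 and 52.2 CPM in Th0 KI and at 35.03, 37.7, 34.9, 40.3 and 35.3 CPM in Th1 KI (log2 change -0.69 ± 0.196, adjusted p = 0.0278). Ndufa5 (-0.78 ± 0.202, adjusted p = 0.0166), Uqcr10 (-0.74 ± 0.229, adjusted p = 0.0462) and Ndufc1 (-0.48 ± 0.141, adjusted p = 0.0362) were likewise without overlap. Th0 KI 1 was the highest Th0 KI library for Uqcrb, Uqcr10 and Ndufa5, and without it none of the 8 was called and the log2 changes were -0.46, -0.46 and -0.50 for those 3 genes. The count was 2 without Th1 KI 1, 1 without Th1 KI 2, 3 or 5, 5 without Th1 KI 4 and 15 without Th0 KI 4. The calls of Uqcr10 and Uqcrb each ended when any of Th1 KI 1, 2, 3 or 5 was left out, that of Ndufc1 without any library but Th0 KI 3 and Th0 KI 4, and that of Ndufa5 without Th1 KI 3 (-0.68). The 13 mitochondrial members all lay below 0 (median -0.18), none passed the test, and none had an unadjusted p under 0.05.

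No member was called between genotypes in any culture. KO against WT called 0.0% of all genes in Th0, 0.0% in Th1 and 0.169% in Treg, and KI against WT 0.512% in Th0, 0.0274% in Th1 and 0.0% in Treg. DESeq2 called no member in KO against WT. In KI against WT it called 2 nuclear members higher in Th0 and 2 lower in Th1. Of all 21873 genes, DESeq2 called 477 higher there in Th0 and 267 lower in Th1. Unadjusted p under 0.05 was seen for 1, 4 and 1 nuclear members in KO (Th0, Th1, Treg) and for 10, 16 and 3 in KI. Of nuclear members that is 1.22%, 4.88% and 1.22% in KO, against 4.79%, 9.15% and 10.1% of all genes. In KI it is 12.2%, 19.5% and 3.66%, against 16.3%, 15.1% and 8.04%. Both comparisons of a culture share its WT libraries, as the Treg and Th1 comparisons of a genotype share its Th0 libraries.

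Among mitochondrial members the KO libraries lay lower than the WT ones by their medians, short of the test. The median log2 difference of KO from WT was -0.37 in Th0, -0.22 in Th1 and -0.33 in Treg, with 13, 12 and 13 of 13 members below 0, and that of KI from WT was -0.10, -0.12 and -0.26. An unadjusted p under 0.05 was reached by 5 members in Th0 KO, 1 in Th1 KO and 5 in Treg KO, and by none in KI. In KO that is 38.5%, 7.69% and 38.5% of mitochondrial members, against 4.79%, 9.15% and 10.1% of all genes. Of all genes, 16.3%, 15.1% and 8.04% reached it in KI. mt-Cytb was at -0.54 ± 0.256 in Th0, -0.54 ± 0.256 in Th1 and -0.50 ± 0.256 in Treg for KO. mt-Nd6 had the lowest p of these comparisons, in Treg (-0.57 ± 0.191, adjusted p = 0.254). The Th0 WT libraries of mt-Cytb ran from 2020 to 5002 CPM and those of Th0 KO from 1731 to 2460 CPM, so the spread was wider in WT, and the KO range overlapped the low end of WT. The members other than mt-Nd6, which lies on the opposite strand, are transcribed together. Their shared sign is thus not that of separate genes.

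The Treg against Th0 change did not pass a test of difference between genotypes for any member. The interaction terms called 0.0% of all genes for KO minus WT and 0.0% for KI minus WT, and DESeq2 called no member. At an unadjusted p under 0.05 there were 0 nuclear members for KO minus WT and 2 (2.44%) for KI minus WT, and 0 mitochondrial ones in both. Of all genes, 5.25% and 6.22% had such a p. The larger count of lower members in KI than in WT or KO is therefore not shown to be a difference between genotypes.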

How the data were processed

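The authors deposited a table of raw counts for each gene, with a column for every lane of a library, from poly(A) RNA of 44 T cell cultures read as pairs of 150 bp. Per the file headers, reads were aligned with STAR. Counting tool, annotation and strand setting were not given in the sources used, and the submitters' processing notes name GRCh38 although the gene identifiers are those of mouse. The 2 lanes of each library were summed (88 columns, all matched to a library). Groups came from the labels. Among 86 pairs within groups, counts differed by more than sampling noise (smallest median chi-square 4.36), so none was a library deposited again. A deposited normalised table was not used.

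The test was run in edgeR 4.0.16 (R 4.3.3): 9 group means over 44 libraries, TMM factors, the default filter on low counts (21873 genes) and quasi-likelihood tests in 14 comparisons, adjusted over all genes by the Benjamini-Hochberg method at 0.05. The script was tested on simulated counts. Alternatives were DESeq2 1.42.0, other scalings and filters, the compared groups alone, the library number as a block, and leaving out libraries. Same-numbered libraries deviated together (every correlation over 0.1) between Th0 and Th1 in all genotypes and between Th0 and Treg in KO (0.107 to 0.286) and KI. Between Th0 and Treg in WT the correlations ran from 0.0919 to 0.335, the lowest just under that cutoff. There, 4 of 5 libraries correlated best with their own number. Same-numbered libraries of different genotypes did not deviate together. Lengths and places are from GENCODE M21 (GRCm38), matched by identifier for all 96 members, and promoters from RefSeq.

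Members and the 15 gene lists were chosen with earlier results of these data known. Members named were those called whose groups did not overlap, above a mean log2 CPM of 3 (up to 8 each way in WT Treg against Th0, 4 elsewhere), and always the mitochondrial members, complex II and the isoform families. From other lists up to 3 called genes each way, at a log2 CPM of at least 2, were eligible. Atp5a1, Atp5pb, Ndufa6, Uqcrc2 and others outside the rule were added after their values were seen. So were the values of Atp5b and Uqcr10 in comparisons for which the rule did not name them.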

Additional observations from a re-analysis of the deposited data

Results flagged for a closer look

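Within groups of 4 or 5 libraries, 14 of 171 sets of values held a library far from the others (the gap to its neighbour filled most of the group's range), where chance gives about 1 in 20. Th0 KI 1 was high for Uqcr10 (72.8 CPM, the next 41.8), Uqcrb (85.1 CPM, the next 52.3) and Sdhd (175 CPM, the next 123.4). Th0 KO 2 was high for Cox7a2l (138.2 CPM) and low for mt-Nd1 (2188 CPM). Treg WT 4 was high for Ndufb6 (39.9 CPM, the next 27.2) and Ndufc1 (18.9 CPM, the next 13.8). Treg KO 2 was high for Atp5b (1421 CPM, the next 1091), and Treg KO 3 for mt-Co1 (15570 CPM) and for the mitochondrial share of counts (3.66%). Treg KO 4 was low for Sdhc (50.5 CPM), Th0 WT 1 for Uqcr10 (39.1 CPM), Th1 KI 3 for Atp5b (1253 CPM) and Treg KI 3 for Ndufa10 (88.2 CPM).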

How the results depend on the processing

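Direction held under every alternative for the 16 gene and comparison pairs that the naming rule gave. Other named genes were run under the alternatives too, but their directions were not summarised in this way. Of the 16, 4 lost their call with no filter on low counts, 3 with only the groups compared and 2 with WT 4, KO 2 and KI 3 left out. Fits on only the groups compared called 14 nuclear members in WT Treg against Th0 (22 in the fit reported) and 25 in KI (38). For Th1 against Th0 they called 10 in KO and 1 in KI (8). They also called 1 mitochondrial member in KO and 2 in KI Treg against Th0. Higher and lower calls over all genes were 2466 and 2269 of 17999 in WT Treg, and 3288 and 3028 of 18695 in KI Treg. In KO Treg they were 3571 and 3619 of 18095. For Th1 they were 1845 and 1862 of 18345 in KO, and 618 and 317 of 18680 in KI. With WT 4, KO 2 and KI 3 left out there were 34 nuclear members in WT and 1 mitochondrial in KI for Treg. For Th1 there were 1 nuclear in KO and 4 in KI. Of the 21968 genes of that fit, 1715 were called higher and 1186 lower for Th1 in KO, and 912 and 683 in KI. With the replicate block, 3 mitochondrial members were called in WT (mt-Atp8, mt-Atp6 and mt-Co3), 3 in KO and 2 in KI for Treg, and 6 nuclear in KO for Th1. For WT Treg against Th0 the pairing fell just short of the cutoff of 0.1, with a lowest correlation of 0.0919. Between genotypes the numbers do not pair libraries. The block changed no other count of members by over 1.5 times. DESeq2 called 1 mitochondrial member in KI Treg, 2 nuclear in KO and 14 in KI Th1, and 2 nuclear in KI against WT in both Th0 and Th1. DESeq2 size factors in edgeR gave 1 mitochondrial member in KI Treg, and no filter on low counts gave 2 nuclear members in KI Th1. TMM factors without mitochondrial genes moved no count by over 1.5 times.

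Leaving out 1 library at a time, nuclear calls ranged from 12 to 39 (WT), 13 to 22 (KO) and 15 to 47 (KI) for Treg, and 0 to 2 (KO) and 0 to 15 (KI) for Th1. Mitochondrial calls ranged from 0 to 5 in WT and 0 to 1 in KI for Treg. KI against WT ranged from 0 to 4 nuclear calls in Th0 and 0 to 1 in Th1. Depth limits only the isoforms at under 1 CPM.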
